A study of Rattus norvegicus with 9 samples.

Results

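The genes described here encode the nuclear subunits of the mitochondrial respiratory chain and of ATP synthase, measured in the liver of 9 male Sprague–Dawley rats. They were taken as the genes whose array annotation gives a single symbol matching Nduf (followed by a, b, c, f, s or v and a number), Sdha to Sdhd, Uqcr, Cyc1, Cox4 to Cox8 or Atp5. This gave 68 of the 14377 genes that the array table names by a single symbol: 29 of complex I, 4 of complex II, 7 of complex III, 14 of complex IV and 14 of complex V. A probe set is a group of short oligonucleotides against one transcript, and where a gene had several, the brightest on average over the arrays stood for it. The rats formed 3 groups of 3, with 1 array per rat. Vehicle rats (animals 3, 4 and 5) served as the control. CCl4 rats (animals 1, 2 and 3) received carbon tetrachloride, a hepatotoxin, mixed with olive oil and injected intraperitoneally over 8 weeks to cause fibrosis. CCl4+Rot rats (animals 4, 5 and 6) received the same CCl4 course and rottlerin, given intraperitoneally at 2.5 mg/kg body weight from 2 weeks after the first CCl4 injection. Rottlerin activates BK channels, which are large-conductance potassium channels opened by calcium, and no group received rottlerin without CCl4. The question was whether CCl4, alone or with rottlerin, changed the transcripts of the chain, and whether complexes I to V differed in this.

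The respiratory chain moves electrons from NADH and succinate to oxygen across the inner mitochondrial membrane. Complex I (NADH dehydrogenase) and complex II (succinate dehydrogenase) pass electrons to ubiquinone, complex III passes them to cytochrome c, complex IV (cytochrome c oxidase) passes them to oxygen, and complexes I, III and IV pump protons. Complex V is ATP synthase, which uses the returning protons to make ATP. Hepatocytes are rich in mitochondria and depend on this ATP for urea and glucose synthesis. Most subunits are encoded in the nucleus, while a few subunits of complexes I, III, IV and V are encoded by mitochondrial DNA.

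No respiratory chain gene was called changed in any of the 3 comparisons. A call required a Benjamini-Hochberg adjusted limma p below 0.05 over all 31042 probe sets and a change of at least 1.5-fold, and 0% of all probe sets were called for CCl4 against vehicle, 0.00322% for CCl4+Rot against CCl4 and 0.0258% for CCl4+Rot against vehicle. At an unadjusted limma p below 0.05, the chain had 4 of 68 genes between CCl4 and vehicle, where 13.5% of all genes passed. It had 0 of 68 between CCl4+Rot and CCl4, against 5.5% of all genes, and 3 of 68 between CCl4+Rot and vehicle, against 9.79%. The shares of the chain were therefore below those of all genes in each comparison.

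Of the 68 genes, 60 were called present on all 9 arrays, a present call being the array software's statement that a probe set stood above its mismatch background. These were 27 genes of complex I, 4 of complex II, 7 of complex III, 8 of complex IV and 14 of complex V. Ndufb8 was present on 8 arrays, Cox6c-ps1 on 6 and Cox6b2 on 4, while Cox4i2, Cox6a2, Cox7b2, Cox8b and Ndufa4l2 were present on none. The 60 genes had a median log2 signal of 12.67, and 46 of them (76.7%) had a mean above 12, compared with 12.5% of the 7058 genes present on all 9 arrays. Signals of different probe sets do not rank transcripts by amount, and these values only show that the chain was read near the top of the signal range. The spread between rats of one group was small there, with a median residual SD of 0.161 on the log2 scale against 0.207 for all genes present on all 9 arrays.

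One array stood apart and touched every comparison that uses the CCl4 rats. CCl4 replicate 3 had 12714 probe sets called present, while the other 8 arrays had between 15550 and 16849. Its median signal over the 60 genes was 12.34, whereas the others lay between 12.55 and 12.78. It was the lowest of the 9 arrays for 52 of the 60 genes, and its median difference from the other CCl4 rats was -0.39 on the log2 scale. Other bright genes shared this offset, with a median of -0.36 over the 880 genes with a mean log2 signal above 12, and it was -0.07 over all genes present on all 9 arrays. The ratio of 3' to 5' signal of glyceraldehyde-3-phosphate dehydrogenase, a sign of RNA integrity, was 0.00 on the log2 scale on this array and between -0.14 and 0.37 on all arrays. The same measure for beta-actin was between 1.34 and 1.42 in vehicle rats, 1.06 and 1.34 in CCl4 rats and 1.39 and 1.45 in CCl4+Rot rats, with every CCl4 array below every array of the other groups, CCl4 replicate 3 only just. Its part in the results was not tested.

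**Figure D1:**
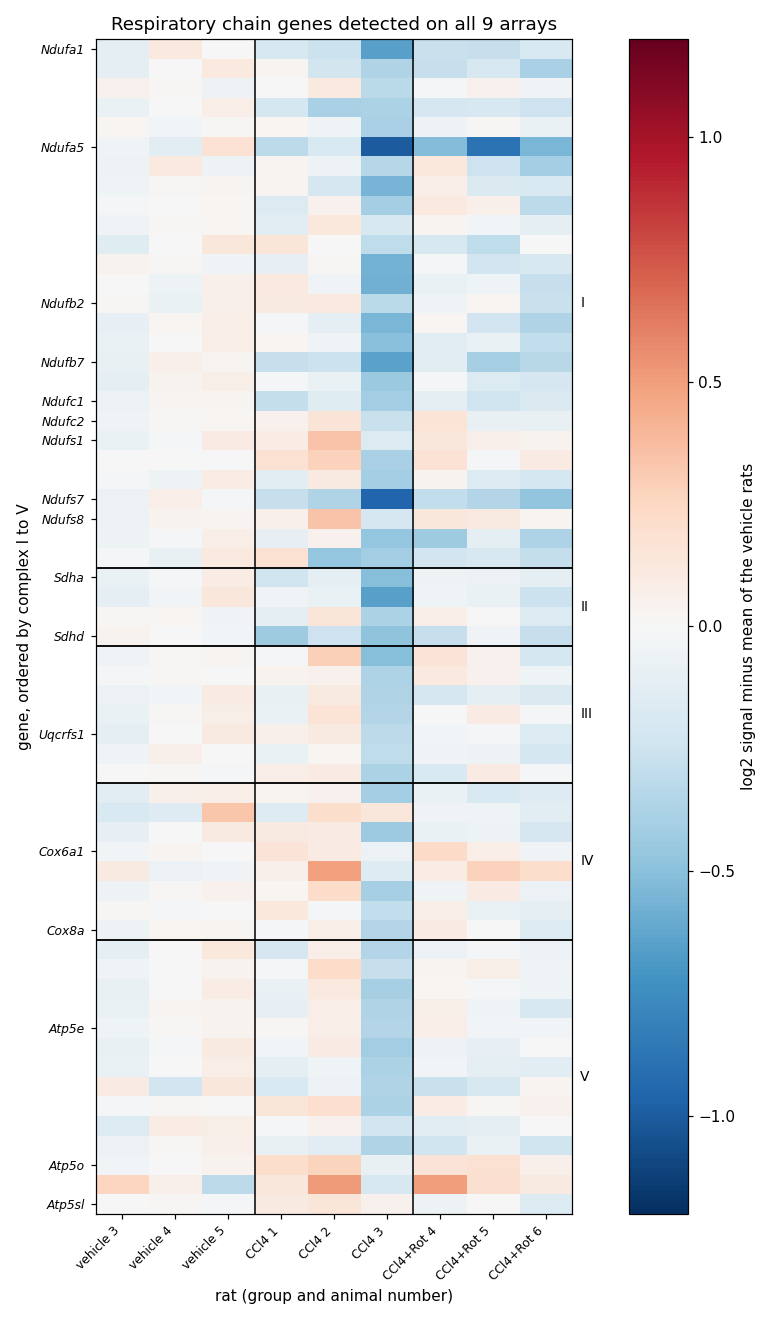
Deviation of each of the 60 respiratory chain genes present on all 9 arrays (rows, ordered by complex, with names for those whose CCl4 rats all lay on one side of the vehicle rats relative to the chain) from its mean in the vehicle rats, on the log2 scale, for each of the 9 rats (columns). Blue is lower and red is higher, and the column of CCl4 replicate 3 is blue in nearly all rows, while Ndufs7 and Ndufa5 are blue in all 6 rats given CCl4.

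In CCl4 rats the chain as a whole was lower than in vehicle rats by a small amount that rested on CCl4 replicate 3. The median deviation of the 60 genes from their vehicle mean was -0.06, 0.01 and 0.05 in the vehicle rats, -0.02, 0.07 and -0.38 in CCl4 rats 1, 2 and 3, and -0.04, -0.05 and -0.16 in CCl4+Rot rats 4, 5 and 6. CCl4 rats 1 and 2 thus lay close to the vehicle range and CCl4 rat 3 lay far below it. The median log2 change between CCl4 and vehicle was -0.12, with 51 of 60 genes below 0, compared with -0.01 over all genes present on all 9 arrays and -0.16 over the 880 bright genes. Without CCl4 replicate 3 it was 0.01, with 28 genes below 0 and 32 above. It was 0.01 after quantile normalization and -0.47 after centring each array on its median. The array medians over all probe sets, on which this centring rests, were 6.84, 6.79 and 6.92 in vehicle rats and 6.81, 7.01 and 7.81 in CCl4 rats, so that CCl4 replicate 3 was the highest there and the lowest for the chain. The direction for the chain thus depended on the scaling. In bulk liver, fewer cells of a type and less RNA per cell cannot be told apart.

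Between CCl4 and vehicle, 9 of the 60 genes (15%) had every CCl4 rat below every vehicle rat, against 14.2% of all genes present on all 9 arrays, and 1 gene (1.67%) had every CCl4 rat above, against 12.1%. None of the 60 differed by 1.5-fold, which 12.1% of those genes did. The 95% interval of the change lay within 1.5-fold in either direction for 37 of the 60 genes, and for 31.6% of all genes present on all 9 arrays. Without CCl4 replicate 3, the count was again 9 genes below, against 20.1% of all genes, and 10 genes above, against 19.7%.

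**Figure D2:**
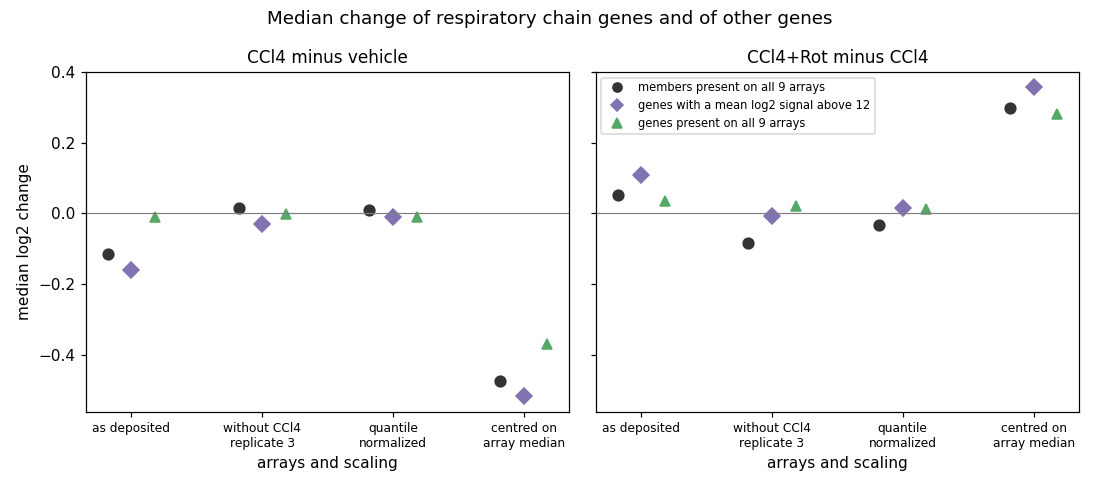
Median log2 change (y axis) of the 60 respiratory chain genes, of the 880 genes with a mean log2 signal above 12 and of the 7058 genes present on all 9 arrays, for 2 comparisons (panels) under 4 choices of arrays and scaling (x axis). The chain moves with the other bright genes, from -0.12 as deposited to 0.01 without CCl4 replicate 3 for CCl4 minus vehicle, and from 0.05 to -0.08 for CCl4+Rot minus CCl4.

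To compare the complexes without this offset, each array was centred on the median of its 60 chain genes, so that a value shows a gene relative to the chain of the same rat. The median within-group SD of the 60 genes was 0.161 on the log2 scale before this centring and 0.0849 after it. Relative to the chain, complex II was lower in CCl4 rats. Its median deviation from the vehicle mean was 0.04, -0.05 and 0.00 in vehicle rats, -0.14, -0.11 and -0.10 in CCl4 rats and -0.03, 0.01 and -0.02 in CCl4+Rot rats. The 3 CCl4 rats lay below all vehicle rats, CCl4 replicate 3 included, and the CCl4+Rot rats lay within the vehicle range. This median is over 4 genes and uses the brighter of 2 Sdhd probe sets. As deposited, the brighter differed by -0.39 between CCl4 and vehicle, and the dimmer by -0.21 with overlapping groups. Whether complex II stays separate with the dimmer probe set was not tested. Complex IV was at 0.00, -0.03 and 0.01 in vehicle rats, 0.08, 0.09 and 0.08 in CCl4 rats and 0.05, 0.04 and 0.07 in CCl4+Rot rats, so that both treated groups lay above the vehicle rats. Complex III was at 0.01, -0.03 and 0.01 in vehicle rats, 0.02, 0.09 and 0.04 in CCl4 rats and 0.00, 0.12 and 0.03 in CCl4+Rot rats, with CCl4 rats just above the vehicle rats. Complexes I and V overlapped between CCl4 and vehicle rats. Complex I supplies 27 of the 60 genes behind the centring, so the centring itself draws its median toward 0. For complex V, the CCl4+Rot rats were at 0.03, 0.05 and 0.16, all above the vehicle rats at 0.00, -0.03 and 0.02. These medians are over 4 to 27 genes of the same arrays and were given no test. A relative value shows unequal change within the chain and not which complex changed.

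**Figure D3:**
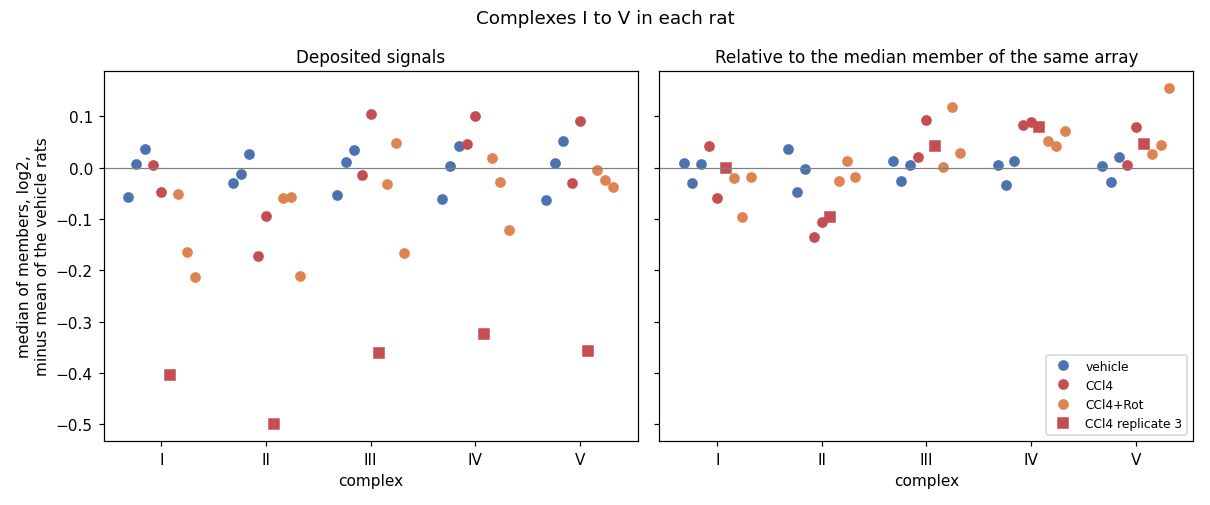
Median of the members of complexes I to V (x axis) in each rat, as log2 deviation from the vehicle mean (y axis), for deposited signals (left) and for signals relative to the median chain gene of the same array (right). The square is CCl4 replicate 3, which lies between -0.50 and -0.32 on the left and among the other CCl4 rats on the right, where complex II is between -0.14 and -0.10 in CCl4 rats.

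Relative to the chain, 7 of the 60 genes (11.7%) had all CCl4 rats below all vehicle rats, against 6.6% of all genes present on all 9 arrays centred in the same way. They were Ndufa1, Ndufa5, Ndufb7, Ndufc1 and Ndufs7 of complex I and Sdha and Sdhd of complex II. Another 10 (16.7%) had all CCl4 rats above, against 17.7% of all genes. These were Ndufb2, Ndufc2, Ndufs1 and Ndufs8 of complex I, Uqcrfs1 of complex III, Cox6a1 and Cox8a of complex IV, and Atp5e, Atp5o and Atp5sl of complex V. Without CCl4 replicate 3, 10 genes were below, against 18.1% of all genes, and 16 above, against 19.2%. The lower count was thus above the share of all genes with this array and not without it. The centring also raised all other genes on CCl4 replicate 3, although their offset was -0.07, against -0.39 for the chain. As deposited, the shares of all genes were 14.2% below and 12.1% above. Shares of all genes centred on the chain are therefore no neutral standard, here and in the comparisons below. No chain gene was called in the fit to all 9 arrays, where the smallest adjusted limma p among the 60 was 0.436. The limma SEs draw on the spread of all probe sets, so they can be larger than the rats of that gene alone would give.

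Complex I transfers electrons from NADH along a series of iron-sulfur clusters. Ndufs7, which carries the last cluster before ubiquinone, had the largest negative difference of the 60 genes between CCl4 and vehicle. Its log2 signal was 12.31, 12.45 and 12.36 in vehicle rats, 12.10, 12.01 and 11.42 in CCl4 rats and 12.08, 12.02 and 11.90 in CCl4+Rot rats. All 6 rats given CCl4 lay below the 3 vehicle rats. The difference between CCl4 and vehicle was -0.53 (SE 0.21, limma, adjusted p = 0.371), and it was -0.32 without CCl4 replicate 3. Relative to the chain, Ndufs7 was -0.37, -0.32 and -0.41 in vehicle rats, -0.61, -0.74 and -0.92 in CCl4 rats and -0.63, -0.65 and -0.65 in CCl4+Rot rats, a difference of -0.39 (SE 0.17, limma, adjusted p = 0.436) between CCl4 and vehicle. The gene was thus below every vehicle rat on either scale, but by an amount that did not pass the test.

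Some other catalytic subunits of complex I went the opposite way relative to the chain, and none was called. Ndufs1, which holds iron-sulfur clusters of the NADH-oxidizing arm, had log2 signals of 11.50, 11.56 and 11.67 in vehicle rats, 11.67, 11.92 and 11.41 in CCl4 rats and 11.72, 11.64 and 11.62 in CCl4+Rot rats. Its signals overlapped as deposited. Relative to the chain it was between -1.22 and -1.10 in vehicle rats, between -1.04 and -0.83 in CCl4 rats and between -1.03 and -0.93 in CCl4+Rot rats, a difference of 0.23 (SE 0.16) between CCl4 and vehicle. Ndufs8, another iron-sulfur subunit, differed by 0.21 (SE 0.16) on this scale. The adjusted limma p was 0.584 for Ndufs1 and 0.619 for Ndufs8. Ndufv2, a subunit of the NADH-oxidizing module, differed by -0.17 as deposited and by -0.03 relative to the chain, with overlapping groups on either scale. Ndufv1, which binds NADH, was read only by a probe set that also names another locus, and this probe set differed by -0.05.

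Among the accessory subunits of complex I, Ndufa5 was lower in both CCl4 groups. Its log2 signal was 10.55, 10.46 and 10.77 in vehicle rats, 10.27, 10.41 and 9.59 in CCl4 rats and 10.07, 9.71 and 10.05 in CCl4+Rot rats, with no overlap between vehicle and either group. The differences from vehicle were -0.50 (SE 0.25) in CCl4 rats and -0.65 (SE 0.25, limma, adjusted p = 0.541) in CCl4+Rot rats. Without CCl4 replicate 3, the difference between CCl4 and vehicle was -0.25. Ndufa3 differed by -0.33 (SE 0.14) between CCl4 and vehicle, Ndufb7 by -0.39 (SE 0.17), Ndufa1 by -0.37 (SE 0.18) and Ndufc1 by -0.28 (SE 0.15), each with all CCl4 rats below all vehicle rats and none called. Without CCl4 replicate 3 these became -0.30 for Ndufa3, -0.27 for Ndufb7 and -0.22 for Ndufa1. Over the 27 genes of complex I the change ran from -0.53 to 0.09, with a median of -0.17 and 24 genes below 0, and without CCl4 replicate 3 the median was -0.02 with 19 genes below 0.

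Complex II oxidizes succinate in the citric acid cycle and is the only complex with no subunit encoded in mitochondrial DNA. Sdha holds the flavin that accepts electrons from succinate, Sdhb holds the iron-sulfur clusters, and Sdhc and Sdhd anchor the enzyme in the membrane and bind ubiquinone. Sdhd had log2 signals of 13.34, 13.29 and 13.26 in vehicle rats, 12.87, 13.04 and 12.81 in CCl4 rats and 13.02, 13.25 and 13.02 in CCl4+Rot rats. The CCl4 rats lay below the vehicle rats with a difference of -0.39 (SE 0.15, limma, adjusted p = 0.371), which was -0.34 without CCl4 replicate 3. A dimmer probe set of Sdhd differed by -0.21, from 12.51, 12.40 and 12.80 in vehicle rats to 12.21, 12.60 and 12.27 in CCl4 rats, with overlapping groups. Sdha was 12.87, 12.93 and 13.04 in vehicle rats, 12.71, 12.83 and 12.43 in CCl4 rats and 12.88, 12.87 and 12.82 in CCl4+Rot rats. CCl4 rats lay below vehicle rats, with a difference of -0.29 (SE 0.16), which was -0.17 without CCl4 replicate 3, while CCl4 rat 2 and CCl4+Rot rat 6 were nearly level. Sdhb differed by -0.26 (SE 0.21) and Sdhc by -0.12 (SE 0.18), with overlapping groups, and these became -0.06 and 0.02 without CCl4 replicate 3. The 2 subunits that stood below the vehicle rats were therefore the flavoprotein and one of the membrane anchors.

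**Figure D4:**
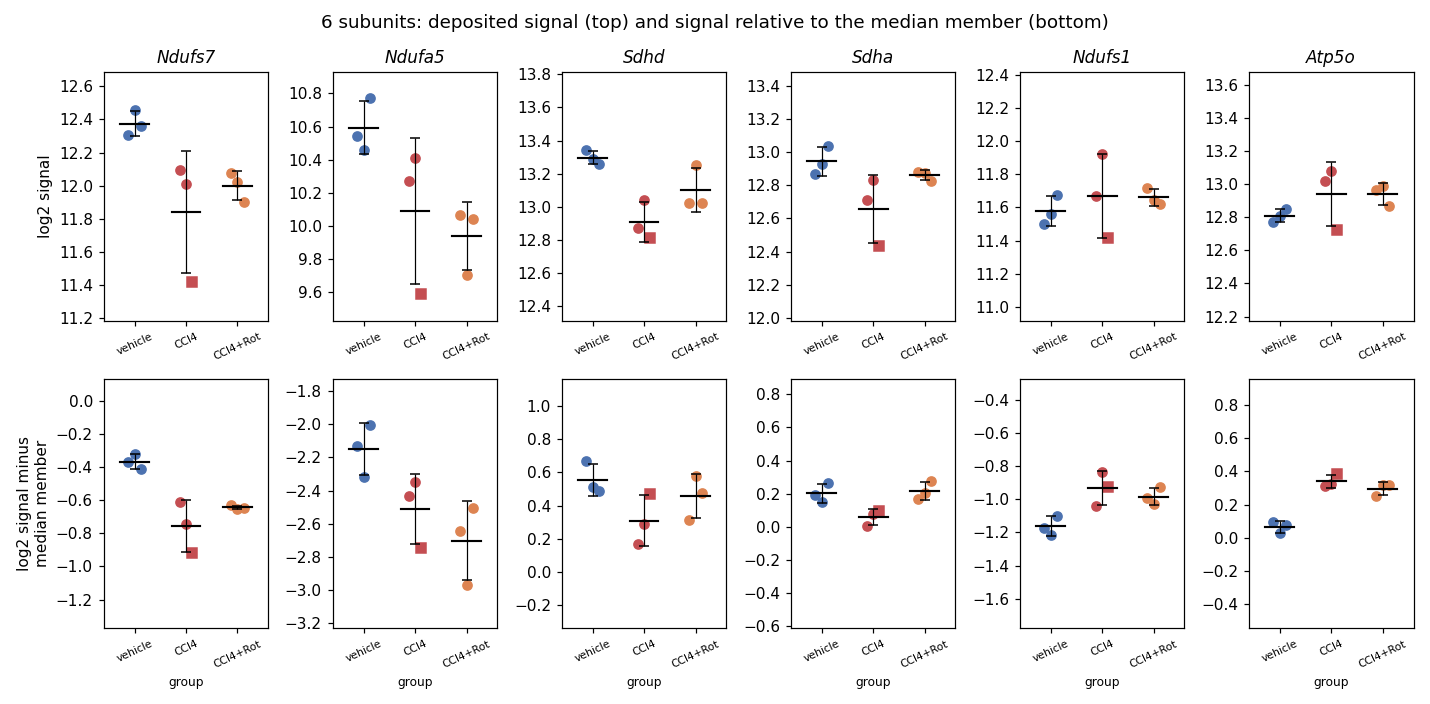
Log2 signal (top) and log2 signal relative to the median chain gene of the same array (bottom) of 6 subunits in vehicle, CCl4 and CCl4+Rot rats. Points are rats, the square is CCl4 replicate 3, and the horizontal line with its bar is the mean ± SD of 3 rats, with each y axis spanning the same log2 range. In the bottom row Ndufs7, Ndufa5, Sdhd and Sdha are lower and Ndufs1 and Atp5o higher in all CCl4 rats than in all vehicle rats.

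As deposited, no gene of complex III had separate groups between CCl4 and vehicle. The Rieske iron-sulfur protein Uqcrfs1 was 13.30, 13.40 and 13.51 in vehicle rats, 13.46, 13.51 and 13.09 in CCl4 rats and 13.37, 13.39 and 13.24 in CCl4+Rot rats. Cyc1, the cytochrome c1 subunit that hands electrons to cytochrome c, was 12.40, 12.46 and 12.48 in vehicle rats, 12.43, 12.73 and 11.93 in CCl4 rats and 12.60, 12.50 and 12.23 in CCl4+Rot rats. In both genes CCl4 rat 2 was the highest and CCl4 rat 3 the lowest of their group. The core proteins Uqcrc1 and Uqcrc2 differed by -0.11 (SE 0.17) and -0.09 between CCl4 and vehicle. All 7 genes were between -0.12 and -0.05, and 6 of the 7 were above 0 without CCl4 replicate 3.

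Several nuclear subunits of complex IV come in tissue isoforms, and the isoforms usual in liver were present on all arrays. Cox4i1, the regulatory subunit that binds ATP, was between 13.51 and 13.72 in vehicle rats, 13.24 and 13.69 in CCl4 rats and 13.47 and 13.56 in CCl4+Rot rats. Cox4i2, its hypoxia- and lung-associated isoform, was called absent on all 9 arrays. Cox6a1 and Cox8a, the ubiquitous isoforms, were present on all arrays, whereas Cox6a2 and Cox8b, the isoforms of heart and skeletal muscle, were on none. Cox6a2 had the smallest limma p of the 68 genes (adjusted p = 0.1998) between CCl4 and vehicle, from signals of 1.53, 3.93 and 1.68 in vehicle rats and 5.64, 5.57 and 6.14 in CCl4 rats that were all called absent, and no fold is given. Of 10 measured markers of striated muscle, 9 were called present on no array. Cox7b2, an isoform of Cox7b, reached 8.06 in CCl4 replicate 3 and was also called absent there.

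Cox6b2, the testis isoform of a subunit on the intermembrane side, was the one isoform of another tissue with present calls. Its log2 signal was 5.72, 4.78 and 5.64 in vehicle rats, where no array called it present, 4.91, 7.18 and 7.04 in CCl4 rats, where only CCl4 replicate 2 did, and 6.76, 7.21 and 6.81 in CCl4+Rot rats, where all 3 did. CCl4+Rot rats lay above all vehicle rats, while CCl4 and vehicle rats overlapped. The estimated difference was 2.91-fold for CCl4+Rot over vehicle (limma, adjusted p = 0.549). On the log2 scale this was 1.54 (SE 0.60, 95% interval 0.14 to 2.94). No vehicle array called the gene present, so the vehicle level behind this fold is uncertain. No fold is given for CCl4 over vehicle, since 2 of the 3 CCl4 arrays did not call it present either. Its partner Cox6b1 was named alone by no probe set.

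**Figure D5:**
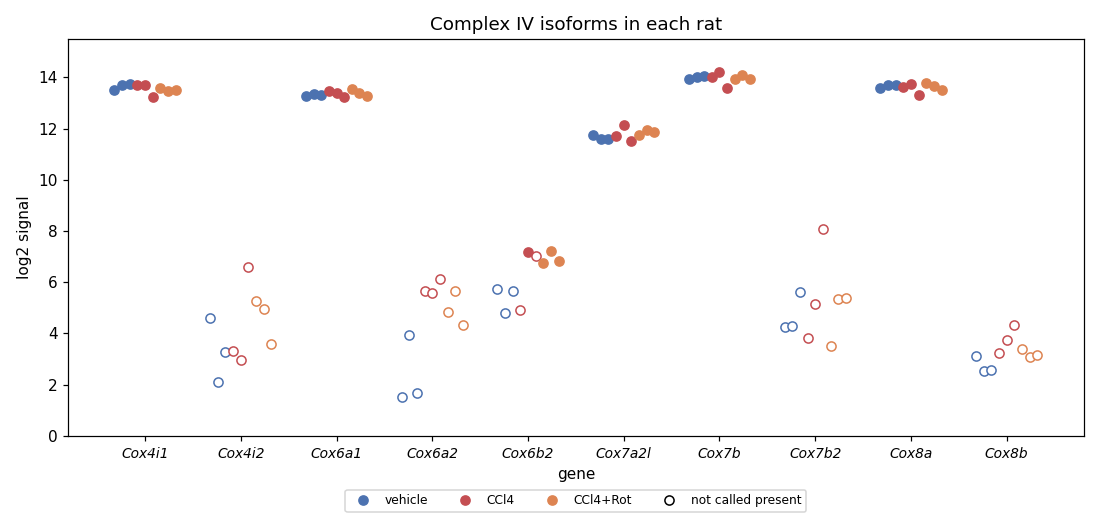
Log2 signal (y axis) of 10 isoforms of complex IV subunits (x axis) in each rat, coloured by group, with open circles where the array did not call the gene present. Cox4i1, Cox6a1, Cox7b and Cox8a lie above 13 on all arrays, and Cox6b2 is present in 1 CCl4 and 3 CCl4+Rot rats.

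The remaining genes of complex IV differed little. Cox5b differed by -0.08 between CCl4 and vehicle, and Cox5a by 0.06 with 9.98, 10.01 and 10.50 in vehicle rats. Cox7a2l, which helps complexes III and IV associate into supercomplexes, had the largest positive difference of complex IV genes present on all arrays, at 0.13, with CCl4 rat 2 at 12.14 and CCl4 rat 3 at 11.49. Cox6a1 was 13.27, 13.34 and 13.31 in vehicle rats and 13.46, 13.40 and 13.23 in CCl4 rats, and it was 0.20 (SE 0.16) higher in CCl4 rats relative to the chain. Ndufa4, counted under complex I by its name, is now assigned to complex IV, and it was 13.74, 13.68 and 13.73 in vehicle rats and 13.74, 13.66 and 13.33 in CCl4 rats.

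In complex V, the catalytic head was close to its vehicle level apart from CCl4 replicate 3. Atp5b, the catalytic beta subunit, was 14.04, 14.08 and 14.13 in vehicle rats, 14.06, 14.30 and 13.81 in CCl4 rats and 14.12, 14.15 and 14.04 in CCl4+Rot rats. The differences between CCl4 and vehicle were -0.16 (SE 0.17) for Atp5a1, the alpha subunit, -0.03 for Atp5b, -0.12 for Atp5c1, the gamma shaft, and -0.12 for Atp5d, the delta subunit. Atp5g3, one of the genes for the rotating c ring, differed by -0.12, and the probe sets that name Atp5g1 or Atp5g2 with another locus differed by 0.06 and 0.00.

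Atp5o, the stalk subunit that ties the head to the membrane part, had the largest relative difference among the subunits whose CCl4 rats all lay above the vehicle rats on that scale. Its log2 signal was 12.77, 12.81 and 12.85 in vehicle rats, 13.02, 13.08 and 12.72 in CCl4 rats and 12.96, 12.99 and 12.87 in CCl4+Rot rats. All CCl4+Rot rats and all CCl4 rats but replicate 3 lay above the vehicle rats. Relative to the chain, Atp5o was 0.10, 0.03 and 0.08 in vehicle rats, 0.31, 0.32 and 0.38 in CCl4 rats and 0.25, 0.32 and 0.32 in CCl4+Rot rats, a difference of 0.27 (SE 0.15, 95% interval -0.09 to 0.63, limma, adjusted p = 0.518) between CCl4 and vehicle. Here CCl4 replicate 3 was the highest of its group. Atp5l, a membrane subunit at the interface of synthase dimers, was the complex V gene with every CCl4 rat below every vehicle rat, from 13.46, 13.55 and 13.59 to 13.45, 13.40 and 13.17.

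Short motifs of known regulators of respiratory genes were counted in the promoters. RefSeq promoters (GRCr8, 250 bases before to 50 bases after the start) were matched for 59 of the 68 genes. The core GCATGCGC of nuclear respiratory factor 1, a regulator of respiratory genes, was in 7 of the 59 (11.9%) and in 2.77% of all 27457 genes with a promoter. CCGGAAG, the core of ETS family factors such as the respiratory gene regulator GABP, was in 18 (30.5%), against 9.63% of all genes. AAGATGGC, the core of YY1, was in 14 (23.7%), against 3.62%, and in 12 of these it reached past the start. Any of these, searched on both strands, was in 28 of the 59 (47.5%) and in 14.7% of all genes, and in 3 of 4 genes of complex II, 12 of 26 of complex I, 4 of 6 of complex III, 3 of 11 of complex IV and 6 of 12 of complex V. The promoters of the chain had a median GC content of 56%, and those of all genes 52.3%. A match of letters shows no binding. Shown are the 250 bases before the start, 5′ to 3′, of Atp5o, for its position relative to the chain, and of Sdhb and Sdhd of complex II, with these cores in capitals. The promoter of Sdha, whose CCl4 rats also lay below the vehicle rats, held none of these cores. In Atp5o the core of nuclear respiratory factor 1 overlaps its own reverse complement, in Sdhb the first capitals are that core and the second the ETS core, and in Sdhd the capitals are the ETS core on the opposite strand. Atp5o also holds the YY1 core, which reaches past the start and is not among the bases shown.
Atp5o, chr11:44657484-44657733, minus strand: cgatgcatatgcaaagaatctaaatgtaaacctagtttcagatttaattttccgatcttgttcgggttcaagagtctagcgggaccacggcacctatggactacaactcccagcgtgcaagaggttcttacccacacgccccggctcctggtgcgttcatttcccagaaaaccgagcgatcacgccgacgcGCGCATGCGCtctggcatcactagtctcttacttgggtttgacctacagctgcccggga
Sdhb, chr5:158547684-158547933, plus strand: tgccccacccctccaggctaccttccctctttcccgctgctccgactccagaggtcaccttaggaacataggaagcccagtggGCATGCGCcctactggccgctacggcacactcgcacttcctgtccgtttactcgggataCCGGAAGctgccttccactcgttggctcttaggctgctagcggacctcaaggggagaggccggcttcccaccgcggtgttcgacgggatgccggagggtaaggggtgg
Sdhd, chr8:59850642-59850891, minus strand: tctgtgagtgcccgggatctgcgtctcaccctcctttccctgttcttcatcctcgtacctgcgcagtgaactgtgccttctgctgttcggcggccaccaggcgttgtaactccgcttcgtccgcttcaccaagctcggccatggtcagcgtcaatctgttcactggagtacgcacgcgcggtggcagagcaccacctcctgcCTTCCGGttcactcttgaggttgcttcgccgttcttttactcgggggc

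For rottlerin, the comparison of CCl4+Rot with CCl4 changed direction with CCl4 replicate 3. The median log2 change of the 60 genes was 0.05 with 15 genes below 0, compared with 0.03 over all genes present on all 9 arrays and 0.11 over the bright genes. Without CCl4 replicate 3 it was -0.08 with 54 genes below 0, compared with 0.02 and -0.01. After quantile normalization it was -0.03, with 35 genes below 0. All CCl4+Rot rats were below all CCl4 rats for 1 gene (1.67%), Atp5sl, against 4.02% of all genes present on all 9 arrays, and above for 0, against 8.13%. None of the 60 differed by 1.5-fold, against 4.38% of those genes, and the 95% interval lay within 1.5-fold for 53 of the 60.

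Without CCl4 replicate 3, 14 of the 60 genes (23.3%) had all CCl4+Rot rats below both CCl4 rats, against 11.4% of all genes, and 0 had them above, against 13.9%. Of the 880 genes with a mean log2 signal above 12, 155 were below and 91 above, so bright genes also leaned toward lower values. The 14 came from all complexes but complex II and included Uqcrfs1, Cox4i1, Cox5b and Atp5o. None was called, and the smallest adjusted limma p of the 60 genes in this fit was 0.779. By complex, the median change without CCl4 replicate 3 was -0.11 for complex I, 0.02 for complex II, -0.12 for complex III, -0.09 for complex IV and -0.06 for complex V.

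Relative to the chain, Sdha was the complex II gene whose CCl4+Rot rats all lay above the CCl4 rats. It was 0.19, 0.15 and 0.26 in vehicle rats, 0.00, 0.08 and 0.09 in CCl4 rats and 0.17, 0.20 and 0.28 in CCl4+Rot rats. The CCl4+Rot rats lay among the vehicle rats or just above them. The difference between CCl4+Rot and CCl4 was 0.16 (SE 0.16, 95% interval -0.21 to 0.52, limma, adjusted p = 0.901). In this comparison 2 of the 60 genes (3.33%), Sdha and Uqcr10, were above without overlap, against 5.33% of all genes, and 2 (3.33%), Atp5sl and Uqcrfs1, below, against 3.5%. With CCl4 replicate 3 left out, 5 genes were above, against 22.4% of all genes, and 5 below, against 4.76%. Ndufs7 differed by 0.11 (SE 0.17, 95% interval -0.27 to 0.50) between CCl4+Rot and CCl4 on this scale, with overlapping groups.

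Between CCl4+Rot and vehicle, the median log2 change was -0.08 with 48 of 60 genes below 0, compared with 0.01 over all genes present on all 9 arrays and -0.04 over the bright genes. After quantile normalization it was -0.02 with 36 genes below 0, and after centring each array on its median it was -0.19 with 57 below 0. All CCl4+Rot rats were below all vehicle rats for 12 genes (20%), against 13.3% of all genes, and above for 1 (1.67%), Atp5o, against 16.8%. Of the 12, 9 belonged to complex I, namely Ndufa1, Ndufa3, Ndufa5, Ndufa11, Ndufb7, Ndufc1, Ndufs7, Ndufv2 and Ndufv3, and the others were Sdhd, Uqcrc1 and Atp5l. Complex I had 27 of the 60 genes. Ndufa5 alone differed by 1.5-fold, against 9.65% of all genes. Ndufa11, another accessory subunit, was 12.58, 12.67 and 12.79 in vehicle rats and 12.41, 12.48 and 12.29 in CCl4+Rot rats, a difference of -0.29 (SE 0.17, limma, adjusted p = 0.762). Relative to the chain, 5 genes (8.33%) were below, all of complex I, against 6.83% of all genes, and 10 (16.7%) were above, against 22.5%. The comparisons with CCl4 and with CCl4+Rot share their vehicle rats. Animal CCl4+Rot 6, which had the lowest chain median of its group, also had the highest 3' to 5' difference of glyceraldehyde-3-phosphate dehydrogenase, at 0.37 on the log2 scale. Without this rat, the median change over all 68 genes was -0.03 and that of complex I -0.06, and with it they were -0.06 and -0.14.

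The array also held 7 of the genes encoded in mitochondrial DNA, of which 6 were present on all arrays and ND4 on none. The signals of COX1, a catalytic subunit of complex IV, were 15.13, 15.26 and 15.37 in vehicle rats, 15.13, 15.14 and 14.72 in CCl4 rats and 15.13, 15.22 and 15.28 in CCl4+Rot rats. CYTB of complex III was 15.17, 15.35 and 15.32 in vehicle rats, 15.30, 15.24 and 14.79 in CCl4 rats and 15.22, 15.30 and 15.33 in CCl4+Rot rats. The groups overlapped in both genes, and CCl4 replicate 3 was again the lowest rat. Between CCl4 and vehicle the 6 genes differed by -0.26 to -0.10.

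Some rows that match by name are not subunits, or are read together with another locus. Cox6c-ps1 is a pseudogene, and Atp5s and Atp5sl, counted under complex V by their names, are now named Dmac2l and Dmac2. Atp5sl was the one gene with all CCl4 rats above all vehicle rats as deposited, at 9.26, 9.28 and 9.25 in vehicle rats, 9.37, 9.41 and 9.32 in CCl4 rats and 9.21, 9.27 and 9.10 in CCl4+Rot rats, a difference of 0.10 (SE 0.14). A further 14 probe sets name a subunit together with another gene. All 14 were present on all arrays, 0 were called, and their median log2 change was -0.09 between CCl4 and vehicle and 0.02 between CCl4+Rot and CCl4.

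Genes that work around the chain were not called either. Of 12 measured electron carriers, complex I subunits outside the name rule and the ATP synthase inhibitor, 0 were called in either direction in any comparison. The inhibitor Atpif1, which blocks ATP hydrolysis by complex V, was 9.90, 9.92 and 10.02 in vehicle rats, 10.52, 10.86 and 10.40 in CCl4 rats and 10.47, 10.37 and 10.61 in CCl4+Rot rats. All 6 rats given CCl4 lay above the vehicle rats, with differences of 0.64 (SE 0.18, limma, adjusted p = 0.252) for CCl4 and 0.53 (SE 0.18, limma, adjusted p = 0.446) for CCl4+Rot, and of 0.74 for CCl4 without replicate 3. None was called among 36 assembly factors, 16 genes of the citric acid cycle and pyruvate dehydrogenase, 19 regulators of mitochondrial genes, 68 mitochondrial ribosomal proteins and 19 import genes. Their median changes between CCl4 and vehicle were -0.04, -0.11, 0.00, -0.01 and 0.02. Of 6 measured adenine nucleotide and phosphate carriers and uncoupling proteins, 0 were called. Slc25a4, the heart and muscle isoform of the ADP/ATP carrier, was present on 8 arrays. Its log2 signal was 9.10, 8.81 and 9.05 in vehicle rats, 9.33, 10.53 and 9.45 in CCl4 rats and 9.92, 9.96 and 10.22 in CCl4+Rot rats. The groups given CCl4 lay above vehicle by 0.78 (SE 0.32, limma, adjusted p = 0.386) and 1.05 (SE 0.32, limma, adjusted p = 0.403).

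Signals of some cell type markers also differed between groups. The sums of endothelial, T and NK cell, striated muscle and brown fat markers overlapped between CCl4 and vehicle rats. The summed linear signal of 11 stellate cell and myofibroblast markers was between 9191 and 14990 in vehicle rats, 21360 and 36910 in CCl4 rats and 31620 and 39600 in CCl4+Rot rats. Of the 11 markers, 7 had all CCl4 rats above all vehicle rats, as did 12.1% of all genes present on all 9 arrays. The sum over 9 hepatocyte markers was between 272500 and 307900 in vehicle rats, 215300 and 303500 in CCl4 rats and 294700 and 320600 in CCl4+Rot rats. These sums overlapped between CCl4 and vehicle rats, and 0 of the 9 markers had separate groups in either direction. The sum over 7 macrophage markers was between 18870 and 23790 in vehicle rats, 23140 and 29320 in CCl4 rats and 29080 and 32730 in CCl4+Rot rats. Of the 7 markers, 1 had all CCl4 rats above all vehicle rats, which is near the share of all genes. The sum over 5 cholangiocyte markers was between 912 and 1066 in vehicle rats, 2606 and 5402 in CCl4 rats and 1268 and 2432 in CCl4+Rot rats, so that the sums of the 3 groups did not overlap, and 2 of the 5 markers had all CCl4 rats above all vehicle rats while 1 was present on no array. The part of these shifts in the results for the chain, Atpif1 and Slc25a4 was not tested.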

How the data were processed

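RNA from 9 rat livers was hybridised to Affymetrix Rat Genome 230 2.0 arrays. For each array the authors deposited log2 signals and detection calls of 31099 probe sets, and the submitters' processing notes name MAS5 and affy; versions and the genome build are not given in the sources used here. The 57 control probe sets were left out, and the other 31042 were fitted as deposited with limma 3.58.1 (R 4.3.3), 3 group means and Benjamini-Hochberg adjustment over all probe sets. The SE, interval and p of a gene are moderated, with its spread drawn toward a common value estimated over all probe sets. They do not give the spread of that gene's rats alone. The number of arrays limits the precision: with 3 rats against 3, an exact two-sided permutation test cannot give a p below 0.1.

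The genes and lists were chosen with earlier results of these data known. Genes named are core subunits (1 is not reported here), complex IV isoforms, genes called or with the 5 smallest p, the largest rise and fall of each complex, and genes present on no array; genes whose groups did not overlap were named after their values were seen. The 7 mitochondrial genes were listed after the table's symbols were seen. Promoters came from RefSeq. Alternatives were quantile normalization, median centring, detection filters, a robust fit (statmod), the methods' t-test, other probe set choices and each array left out. Centring on the chain was chosen after seeing the data, and the robust fit was not run on signals centred in this way. The fit was tested on simulated data.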

Additional observations from a re-analysis of the deposited data

How the results depend on the processing

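No respiratory chain gene was called under any fit with adjusted p values, namely other scalings, detection filters, the robust fit and each array left out. The methods' t-test without adjustment gave 2 chain genes between CCl4 and vehicle and 3 between CCl4+Rot and vehicle, and 0 after adjustment. With 3 rats per group, limma found 0% of probe sets changed by 1 on the log2 scale in simulated data, and 51% of those changed by 2. These shares are not given for chain genes alone. The median residual SD was 0.161 for the 60 chain genes present on all 9 arrays and 0.343 for all genes. The medians in this section are over all 68 genes unless stated, and where values moved the cause was not tested.

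Over all probe sets, CCl4 against vehicle gave 0 calls as reported, 4 without the dimmest 30%, 78 among those present on at least 3 arrays, 348 with the robust fit and 1774 with the unadjusted t-test. CCl4+Rot against vehicle gave 8 as reported, 3 after quantile normalization, 2 after median centring, 22 without the dimmest 30%, 63 with the detection filter, 1 with only the groups compared, 241 with the robust fit, 2126 and 0 with the t-test before and after adjustment, and 5 centred on the chain. CCl4+Rot against CCl4 gave 1 as reported, 851 with the unadjusted t-test, and 0 after quantile normalization, under both filters, with only the groups compared, with the adjusted t-test and centred on the chain. With each array left out, the counts ran from 0 to 2 for CCl4+Rot against CCl4 and from 0 to 1 for CCl4+Rot against vehicle.

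Quantile normalization gave medians between CCl4 and vehicle of -0.13, 0.058 and 0.22 for complexes II, III and IV. Between CCl4+Rot and vehicle it gave -0.0072 for the 68 genes and -0.041, 0.042 and 0.0016 for complexes II, III and V. It turned Uqcrh to 0.0055, Cox4i1 to 0.046 and Atp5s to -0.050 between CCl4 and vehicle, and Cox8b to 0.022 and Cox8a to -0.018 between CCl4+Rot and CCl4.

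Centring on the array median moved the median of the 68 genes to -0.46 between CCl4 and vehicle, with complexes I to V at -0.53, -0.63, -0.45, -0.26 and -0.46. It gave 0.29 between CCl4+Rot and CCl4, with 0.28, 0.41, 0.28, 0.25 and 0.31, and -0.17 between CCl4+Rot and vehicle, with -0.25, -0.22, -0.15, -0.10 and -0.16. It turned Ndufs1, Cox7a2l and Atp5s to -0.27, -0.23 and -0.21 between CCl4 and vehicle, Ndufa5, Uqcrc1, Cox5a and Atp5sl to 0.10, 0.20, 0.11 and 0.078 between CCl4+Rot and CCl4, and Ndufs8 and Uqcr10 to -0.020 and -0.074 between CCl4+Rot and vehicle. Averaging all probe sets of a gene turned Atp5i to 0.26 between CCl4 and vehicle and Atp5s to -0.014 between CCl4+Rot and CCl4, and gave complex V a median of -0.005 between CCl4+Rot and vehicle.

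With each array left out, medians between CCl4 and vehicle ran from -0.26 to -0.016 for complex I, from -0.36 to -0.12 for complex II and from 0.0145 to 0.17 for complex IV. Complex V ran from -0.063 to 0.17 between CCl4+Rot and CCl4. Between CCl4+Rot and vehicle, complex I ran from -0.18 to -0.063, complex IV from -0.035 to 0.093 and complex V from -0.082 to 0.0037. Among single genes, the range spanned 0 between CCl4 and vehicle for Ndufs1 (-0.037 to 0.22), Cox7a2l (-0.049 to 0.27), Cox4i1 (-0.18 to 0.042) and Atp5s (-0.0285 to 0.32). Between CCl4+Rot and CCl4 it did for Ndufs7 (-0.054 to 0.28), Ndufa5 (-0.40 to 0.0066), Uqcr10 (-0.014 to 0.20), Uqcrc1 (-0.17 to 0.063), Cox8a (-0.049 to 0.17) and Atp5s (-0.052 to 0.30), and between CCl4+Rot and vehicle for Uqcr10 (-0.002 to 0.081). Over the 60 genes present on all arrays and without CCl4 replicate 3, an alternative chosen after seeing the data, complexes I and II were -0.024 and -0.12 between CCl4 and vehicle, and complex V was -0.063 between CCl4+Rot and CCl4. Complex IV between CCl4 and vehicle was 0.10 over its 14 genes and -0.062 over the 8 present on all arrays.

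The animal numbers were also fitted as a random replicate block. Samples of the same number correlated at -0.07, 0.02 and 0.03, so the numbers did not pair them, and the block left the counts of calls at 0, 1 and 8 probe sets and 0 chain genes. Of 521 values for named genes under the alternatives, 493 kept their direction and side of the threshold. This count says little about robustness. The filters, the fit of only the groups compared and the robust fit leave the log2 change as it is, so there the direction could not turn. No named gene was called in the reported fit, and none could lose a call.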
